A study of Homo sapiens with 8 samples.

Results

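Translation factors are the proteins that start a polypeptide on the ribosome and then lengthen it, and their transcripts are described here across IGF2BP2 knockdown and its rescue in MOLM13 cells, a line grown from human acute myeloid leukemia. The genes were chosen by name from the deposited expression table: symbols that begin with EIF1 to EIF6, EEF1 or EEF2, without the EIF2AK kinases, a Y-linked copy and pseudogenes, and not at 0 in all 8 libraries. The pattern matched 202 symbols, 136 of them pseudogenes, and 61 were left after the exclusions. EEF1E1-BLOC1S5 and EIF4E1B were at 0 throughout, which gave 59 genes of the 24432 with a value other than 0. The filter on low values was passed by 57 of the 59. EEF1A2, the form of the elongation factor best known from neurons and muscle, lay between -0.71 and -0.68 on the deposited log2 scale, EIF2S3L lay between 1.99 and 2.04, and neither was tested.

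The study holds 4 groups of 2 libraries of polyadenylated RNA. Control cells carry a wild-type genotype label, knockdown cells are labelled as depleted of IGF2BP2 with a short hairpin title, and the remaining groups are labelled as rescue with IGF2BP2 and as rescue with a mutant of it. IGF2BP2 is a reader of N6-methyladenosine in mRNA, and the series title names it in a signaling axis with PRMT6, an arginine methyltransferase, and MFSD2A, a carrier of lipids. All cells are described as infected with virus and, where needed, selected with puromycin. The labels do not describe the mutation, do not say whether control cells received an empty vector, and do not say that replicates were separate cultures, so each p-value reflects no more than the spread among the 8 libraries, and that spread may be technical. Fewer cells of a type and less RNA per cell cannot be told apart in such bulk samples.

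In eukaryotic cells, eIF2 brings the initiator tRNA to the small ribosomal subunit, eIF3 and eIF1A prepare that subunit, and the eIF4 proteins unwind the mRNA at its cap and recruit it. eIF5 and eIF5B then commit the complex to a start codon and join the large subunit, after which eEF1 delivers aminoacyl-tRNAs and eEF2 moves the ribosome along. Growing leukemia cells depend on this machinery, and many of its genes, like those for ribosomal proteins, have mRNAs that begin with a terminal oligopyrimidine tract, a C followed by further pyrimidines, through which mTORC1 controls their translation.

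Several facts of the whole series bear on the values below. IGF2BP2 stood at log2 values of 10.94 and 10.89 in control, 10.24 and 10.25 in knockdown, 11.36 and 11.13 in rescue, and 11.03 and 10.68 in mutant rescue, so the knockdown libraries were the lowest (change from control of -0.67, SE 0.13, limma adjusted p = 0.0147). The replicates of a group differed by log2 amounts whose SD across genes ran from 0.148 in knockdown to 0.303 in mutant rescue, and mutant rescue replicate 2 lay at the end of the first principal component, with a score of 25.31 against 16.27 for replicate 1. The mean of 11 interferon-stimulated genes was 7.32 to 7.86 in control and knockdown libraries, 12.72 and 12.83 in rescue, and 10.91 and 10.89 in mutant rescue, and the mean of 11 S phase genes was 11.53 and 11.51 in control, 10.97 and 11.02 in knockdown, 11.32 and 11.31 in rescue, and 11.03 and 10.87 in mutant rescue. The part of either program in the results below was not tested. The myeloid markers CD33 and FLT3 were present at 9.59 to 10.30 and 12.64 to 13.49. Of 15 markers of T cells, B cells, erythroid cells, fibroblasts and epithelium, 14 did not pass the filter and reached at most 3.70, and the exception was the keratin gene KRT18.

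**Figure D1:**
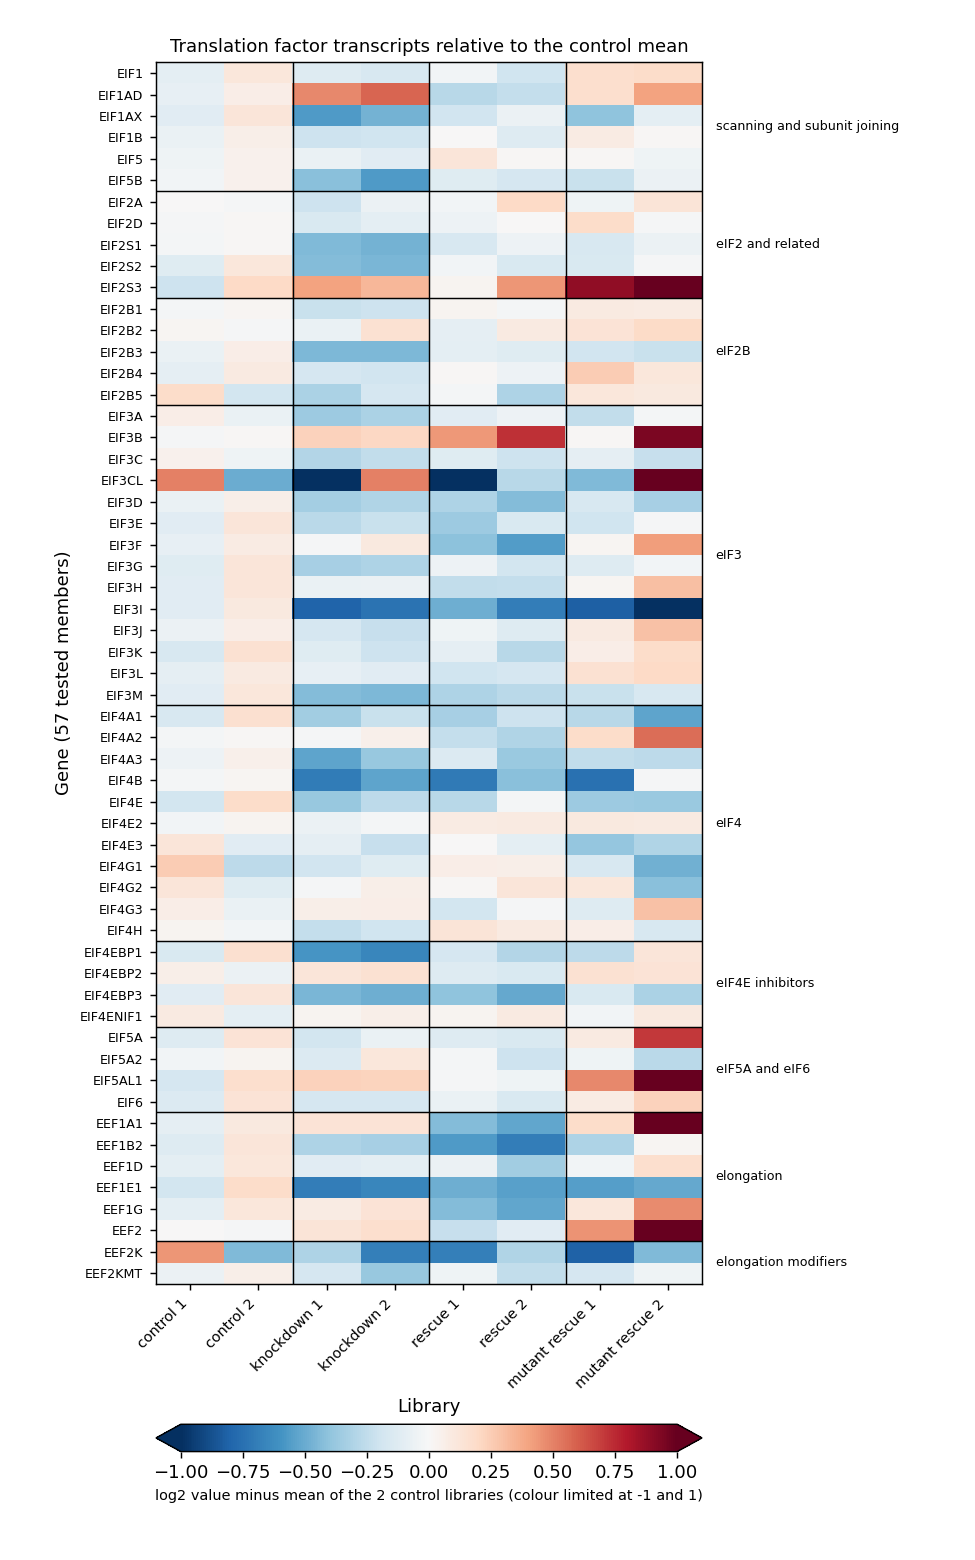
Deposited log2 values of the 57 tested translation factor genes (vertical axis, grouped by role) in the 8 libraries (horizontal axis), each minus the mean of the 2 control libraries, with colour limited at -1 and 1. The 2 knockdown columns are blue for most eIF2, eIF2B and eIF3 genes, and EEF1A1, EEF1G and EEF2 are blue in rescue and red in mutant rescue replicate 2.

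Knockdown against control asked which factors changed when IGF2BP2 was reduced. Transcripts for 11 factors fell and 1 rose among the 57 tested, at a Benjamini-Hochberg adjusted p under 0.05 in limma over 13030 genes. The genes that fell were EIF1AX and EIF5B, the eIF2 subunits EIF2S1 and EIF2S2, EIF2B3, the eIF3 subunits EIF3I and EIF3M, EIF4A3, the inhibitors EIF4EBP1 and EIF4EBP3, and EEF1E1. The gene that rose was EIF1AD. Over all genes tested 12.8% were called, 7.44% lower and 5.35% higher, against 19.3% and 1.75% of the translation factors. The median log2 change of the factors was -0.18, and that of all genes was 0.01. Both knockdown libraries lay below both control libraries for 31 of the 57 factors and above them for 7, where 31.4% and 32.7% of all genes did so.

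Among the scanning and subunit joining factors, EIF1AX encodes eIF1A, which opens the small subunit for scanning. It had log2 values of 11.28 and 11.51 in control and 10.82 and 10.92 in knockdown, a change of -0.52 (SE 0.13, limma adjusted p = 0.0329). EIF5B, the GTPase that joins the large subunit, stood at 11.41 and 11.48 in control and 11.02 and 10.87 in knockdown, a change of -0.49 (SE 0.10, limma adjusted p = 0.0167). In both genes the groups did not overlap. EIF1, the start codon fidelity factor, EIF1B, its paralog, and EIF5, which activates GTP hydrolysis by eIF2, changed by -0.15, -0.20 and -0.09, and none of these passed the test (limma adjusted p = 0.403, 0.278 and 0.558).

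EIF1AD (chromosome 11, 65996545 to 66002176, minus strand, GRCh38) moved the other way. Its product carries an eIF1A-like domain and is not an established initiation factor. The log2 values were 8.97 and 9.12 in control and 9.53 and 9.63 in knockdown, 1.45-fold higher, a change of 0.53 (SE 0.12, limma adjusted p = 0.0220). It was the only factor called higher in knockdown. In the annotation EIF1AD overlaps BANF1 on the opposite strand, as other genes overlap EIF2S1, EIF2S2, EIF3I, EIF3J, EIF3L, EIF4A2, EIF4EBP3, EIF5B and EEF1B2. The sources used here do not say whether reads were assigned by strand.

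The eIF2 complex has 3 subunits, and limma called EIF2S1 and EIF2S2 lower and did not call EIF2S3. EIF2S1, the alpha subunit that stress kinases phosphorylate, stood at 11.35 and 11.38 in control and 10.93 and 10.90 in knockdown, a change of -0.45 (SE 0.09, limma adjusted p = 0.0160). EIF2S2, the beta subunit, stood at 12.17 and 12.40 in control and 11.86 and 11.83 in knockdown, a change of -0.44 (SE 0.11, limma adjusted p = 0.0314). EIF2S3, the gamma subunit that binds GTP and the initiator tRNA, stood at 13.26 and 13.67 in control and 13.87 and 13.80 in knockdown, a difference of 0.37 that did not pass (SE 0.24, limma adjusted p = 0.358). The alpha and beta subunits thus lay lower in both knockdown libraries, and the gamma subunit lay higher in both. The difference between the subunits was not tested. EIF2A and EIF2D, which can deliver initiator tRNA outside eIF2, each changed by -0.13 (limma adjusted p = 0.486 and 0.448).

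The exchange factor eIF2B recharges eIF2 with GTP and has 5 subunits. EIF2B3, its gamma subunit, had log2 values of 11.01 and 11.15 in control and 10.63 in each knockdown library, a change of -0.45 (SE 0.09, limma adjusted p = 0.0152). The other subunits ran from -0.24 for EIF2B5 to 0.04 for EIF2B2 and none passed. EIF2B1, the alpha subunit and the one with the highest mean, stood at 12.33 and 12.37 in control and 12.13 and 12.14 in knockdown, a difference of -0.21 (limma adjusted p = 0.135).

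In eIF3, the scaffold of many subunits that binds the small subunit, limma over all 8 libraries called 2 of 14 genes lower and none higher. The median change was -0.26. EIF3I (chromosome 1, 32221928 to 32231604, plus strand) had the largest decrease of all 57 factors. It stood at 11.96 and 12.17 in control and 11.27 and 11.33 in knockdown, 1.70-fold lower, a change of -0.76 (SE 0.13, limma adjusted p = 0.00972). EIF3M stood at 12.26 and 12.48 in control and 11.94 and 11.92 in knockdown, a change of -0.44 (SE 0.10, limma adjusted p = 0.0239). EIF3A, the largest subunit of the complex, stood at 13.26 and 13.12 in control and 12.83 and 12.87 in knockdown, a difference of -0.34 that did not pass (limma adjusted p = 0.0729). EIF3D, EIF3G and EIF3C were at -0.31, -0.32 and -0.27 (limma adjusted p = 0.0739, 0.0898 and 0.0919). A limma fit of only the 2 groups called EIF3A and EIF3D lower (adjusted p = 0.0404 and 0.0457). The authors' deposited table lists EIF3A, EIF3C, EIF3D and EIF3G as lower (adjusted p = 0.00409, 0.0189, 0.0104 and 0.0214). It has 6 eIF3 genes lower and none higher, and calls 20.1% of all genes tested. Only EIF3B and EIF3F had a positive difference, of 0.23 and 0.05 (limma adjusted p = 0.594 and 0.871). EIF3C and EIF3CL are near-identical copies between which reads cannot be split with certainty, and EIF3CL lay between 4.96 and 7.28 with a wide SE of 0.64.

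Among the eIF4 genes the only limma call over all 8 libraries was EIF4A3, a helicase that serves as the core of the exon junction complex and not in cap recognition. It stood at 10.80 and 10.90 in control and 10.32 and 10.47 in knockdown, a change of -0.45 (SE 0.11, limma adjusted p = 0.0302). The cap complex itself was not called in that fit: EIF4E, the cap-binding protein, differed by -0.32, EIF4A1, the main helicase of initiation, by -0.28, and EIF4G1, the scaffold, by -0.15 (limma adjusted p = 0.164, 0.218 and 0.601). The authors' deposited table lists EIF4E and EIF4A1 as lower in knockdown (log2 changes of -0.45 and -0.39, adjusted p = 0.0341 and 0.0441). EIF4G1 is not called there (-0.25, adjusted p = 0.336), and 20.1% of all genes tested are. EIF4B, which stimulates the helicase, stood at 11.58 and 11.62 in control and 10.90 and 11.07 in knockdown, a difference of -0.62 with a wide SE of 0.21 (limma adjusted p = 0.0959). That SE draws on all 8 libraries, and the mutant rescue libraries stood at 10.85 and 11.59. A limma fit of only the 2 groups called EIF4B lower (SE 0.1, adjusted p = 0.00522). The authors' deposited table also lists EIF4B as lower (log2 change of -0.79, adjusted p = 1.29e-06). EIF4A2, EIF4E2, EIF4G2 and EIF4G3 were between -0.04 and 0.06.

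The inhibitors of the cap complex fell in part. The 4E-binding proteins hold eIF4E away from eIF4G until mTORC1 phosphorylates them. EIF4EBP1 stood at 12.85 and 13.16 in control and 12.41 and 12.35 in knockdown, 1.54-fold lower, a change of -0.62 (SE 0.15, limma adjusted p = 0.0303). EIF4EBP3 stood at 8.01 and 8.24 in control and 7.66 and 7.63 in knockdown, a change of -0.48 (SE 0.13, limma adjusted p = 0.0467). EIF4EBP2 stood at 10.85 and 10.73 in control and 10.91 and 10.94 in knockdown, a difference of 0.13 (limma adjusted p = 0.359). The paralogs EIF4EBP1 and EIF4EBP3 were therefore lower in both knockdown libraries and EIF4EBP2 was higher in both, and the differences between paralogs were not tested. EIF4EBP3 shares sequence with the read-through gene ANKHD1-EIF4EBP3, and EIF4ENIF1, which carries eIF4E into the nucleus, differed by 0.05.

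Of the 6 elongation factor genes tested, only EEF1E1 was called in knockdown by limma. Despite its symbol, its product is known as an auxiliary protein of the aminoacyl-tRNA synthetase complex. EEF1E1 (chromosome 6, 8073360 to 8102578, minus strand) stood at 11.26 and 11.62 in control and 10.75 and 10.79 in knockdown, 1.59-fold lower, a change of -0.67 (SE 0.12, limma adjusted p = 0.0109). EEF1A1, which delivers aminoacyl-tRNA, EEF1G, a subunit of its exchange complex, and EEF2, the translocase, differed by 0.13, 0.10 and 0.15 (limma adjusted p = 0.775, 0.658 and 0.779). EEF1B2 was lower in both knockdown libraries, by a difference of -0.32 that did not pass (limma adjusted p = 0.153). The authors' deposited table lists EEF1B2 as lower (log2 change of -0.44, adjusted p = 0.0288). EEF2K, the kinase that inhibits eEF2, differed by -0.49, with control libraries at 6.25 and 5.37 and an SE of 0.28, and EEF2KMT, the eEF2 methyltransferase, by -0.27 (limma adjusted p = 0.280 and 0.195).

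**Figure D2:**
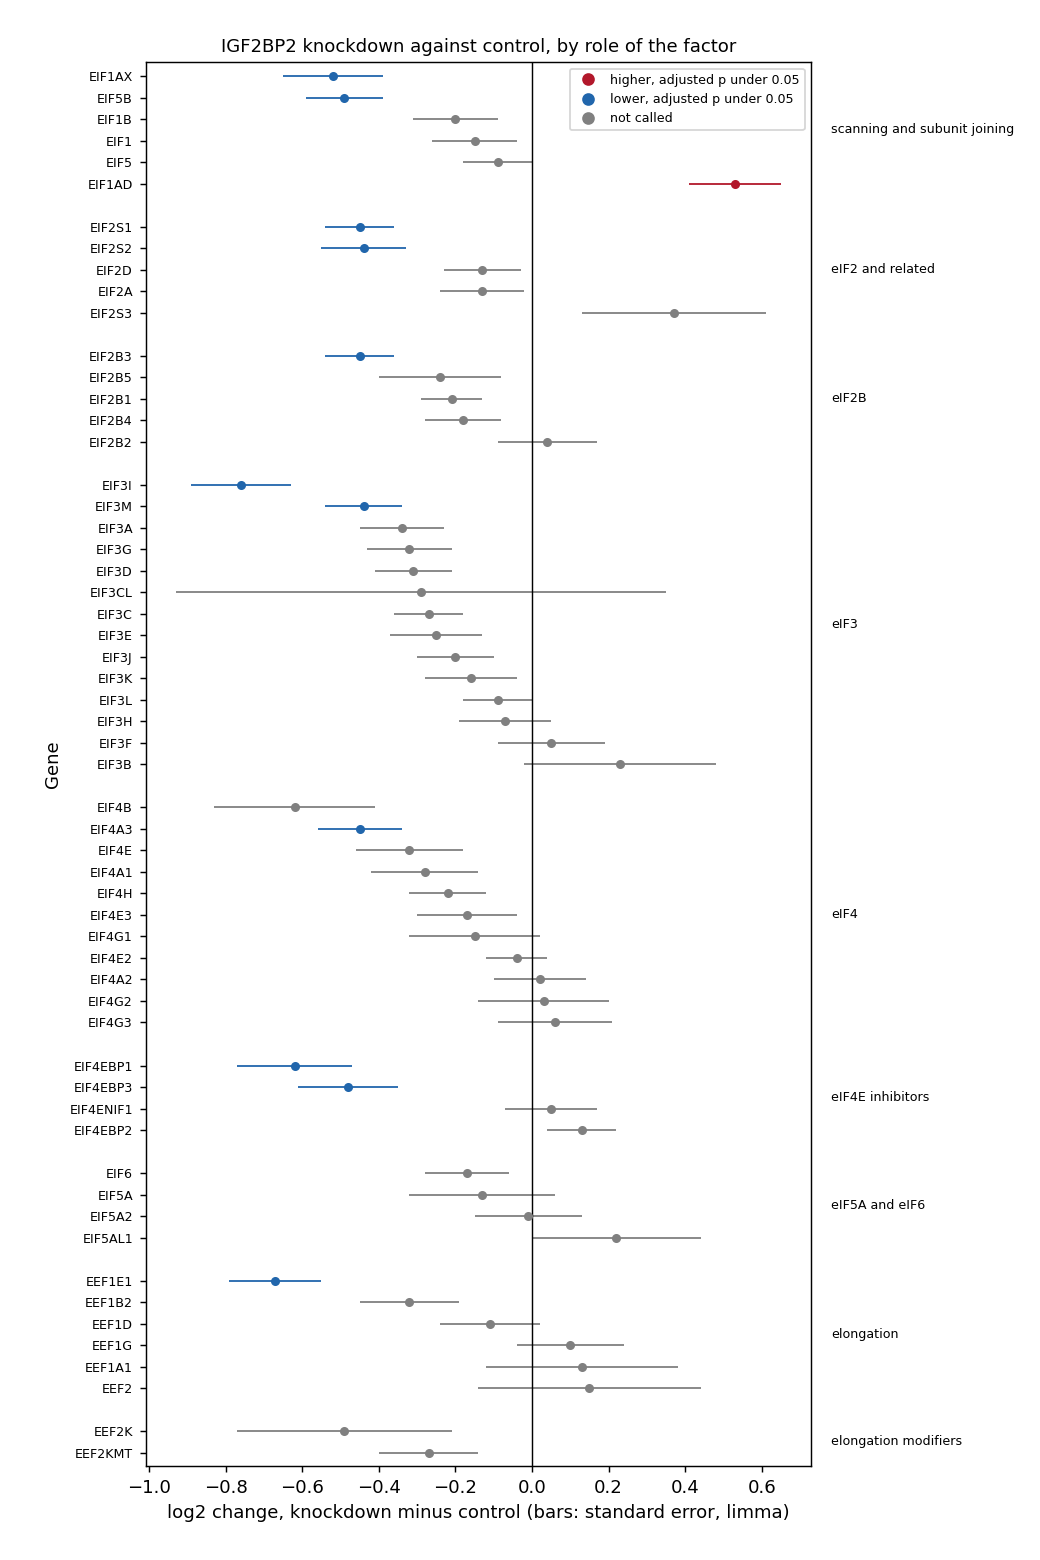
Log2 change of each tested factor in knockdown against control (horizontal axis, points, with standard errors from limma as bars), by role (vertical axis). EIF3I at -0.76 and EEF1E1 at -0.67 are the lowest, EIF1AD at 0.53 is the highest, and the 11 genes called lower are in blue.

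The knockdown calls rest on few libraries. No factor was called without knockdown replicate 1 or without knockdown replicate 2, only EEF1E1 was called without control replicate 2, and the log2 changes then still lay between -0.87 and -0.65 for EIF3I, -0.85 and -0.49 for EEF1E1, -0.47 and -0.43 for EIF2S1 and 0.46 and 0.61 for EIF1AD. With no filter on low values 6 factors were lower and 1 was higher, and the authors' deposited table has 19 lower and 1 higher at an adjusted p under 0.05, where 20.1% of all genes tested are called in that table.

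Rescue against knockdown asked what changed when IGF2BP2 was given back. A single factor passed the test, EIF1AD, which fell by 0.79 on the log2 scale (SE 0.12, limma adjusted p = 0.00677). Its rescue libraries stood at 8.77 and 8.81, below the knockdown libraries at 9.53 and 9.63, a 1.73-fold difference. No factor rose. Over all genes 4.24% were called in this comparison, 1.02% lower and 3.22% higher, against 1.75% and 0% of the 57 factors. Both rescue libraries lay above both knockdown libraries for 25 factors and below them for 12, where 31.3% and 26.9% of all genes did so. The EIF1AD call was lost without knockdown replicate 1, knockdown replicate 2 and rescue replicate 1 in turn, with changes between -0.84 and -0.74.

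This comparison uses the same knockdown libraries as the previous one, so the values of both are given side by side. EIF2S1 was at 11.21 and 11.32 in rescue, a difference from knockdown of 0.35 after one of -0.45 from control (limma adjusted p = 0.0680). EIF2B3 was at 10.98 and 10.96, a difference of 0.34 after -0.45 (limma adjusted p = 0.0748). EIF5B was at 11.32 and 11.27, a difference of 0.35 after -0.49 (limma adjusted p = 0.0931). EIF4EBP1 was at 12.83 and 12.71, a difference of 0.39 after -0.62 (limma adjusted p = 0.200). For these genes both rescue libraries lay above both knockdown libraries, as for 31.3% of all genes. They were picked as lower in those same knockdown libraries, so higher values in rescue are partly fixed by that choice. Of the other genes called lower in knockdown, EIF1AX, EIF2S2, EIF3I, EIF3M, EIF4A3 and EEF1E1 also lay higher without overlap. EIF4EBP3 overlapped, at 7.72 and 7.61 in rescue against 7.66 and 7.63 in knockdown. EIF3I and EEF1E1 were nearer to knockdown, with differences of 0.18 and 0.16 (limma adjusted p = 0.510 and 0.529). The authors' deposited table gives 8 factors as higher in rescue than in knockdown, EIF1AX, EIF2B3, EIF2S1, EIF2S2, EIF3A, EIF4EBP1, EIF4H and EIF5B, with log2 changes from 0.31 to 0.49, and 5 as lower, EEF1A1, EEF1G, EEF2, EIF1AD and EIF3F, from -1.05 to -0.38. Of all genes tested, 10.1% are called there. A limma fit of only the rescue and knockdown libraries called 8 factors higher, with EIF2B3, EIF2S1 and EIF4EBP1 among them (adjusted p = 0.0273, 0.0342 and 0.0264), and 6 lower, with EEF1A1, EEF1G and EIF3F among them (adjusted p = 0.00398, 0.00549 and 0.0224). Its 14 calls were the 13 of the deposited table and EIF4EBP2, which was lower by a log2 difference of -0.27 (adjusted p = 0.0484). Over all 13030 genes tested the same fit called 865 higher and 381 lower.

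Rescue against control asked how far the levels had returned. Rescue libraries were lower in 3 factors and higher in none, and over all genes 7.18% were called, 2.27% lower and 4.91% higher. Both rescue libraries lay below both control libraries for 25 of the 57 factors and above them for 3, against 26.0% and 26.1% of all genes. EIF3I stood at 11.58 and 11.38 in rescue, a change of -0.59 from control (SE 0.13, limma adjusted p = 0.0340). EEF1E1 stood at 10.95 and 10.90, a change of -0.51 (SE 0.12, limma adjusted p = 0.0388). EEF1B2, the nucleotide exchange subunit for eEF1A, stood at 10.81 and 11.06 in control, 10.63 and 10.61 in knockdown and 10.37 and 10.25 in rescue, a change of -0.63 from control (SE 0.13, limma adjusted p = 0.0248). EIF2S1, EIF2S2 and EIF2B3 differed from control by -0.10, -0.09 and -0.11 (limma adjusted p = 0.593, 0.701 and 0.518). All 3 calls were lost without control replicate 2, either knockdown library or either rescue library. Without either mutant rescue library more factors were called in this comparison, and so were more of all genes tested. The authors' deposited table has 7 factors lower and 1 higher, and calls 8.1% of all genes tested.

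Mutant rescue against knockdown asked the same of the mutant. The test called 4 factors higher, EIF2S1, EIF2S3, EIF3J and EIF4EBP1, and none lower, where 11.3% of all genes were called, 5.58% higher and 5.73% lower. Both mutant rescue libraries lay above both knockdown libraries for 37 factors and below them for 3, against 37.1% and 25.9% of all genes. EIF2S3 stood at 14.36 and 15.09 in mutant rescue against 13.87 and 13.80 in knockdown, a change of 0.89 (SE 0.24, limma adjusted p = 0.0496). EIF4EBP1 stood at 12.74 and 13.12, a change of 0.55 (SE 0.15, limma adjusted p = 0.0496). EIF3J, a loosely bound eIF3 subunit, stood at 10.38 and 10.58 against 10.12 and 10.06, a change of 0.40 (SE 0.10, limma adjusted p = 0.0461), and EIF2S1 rose by 0.34 (SE 0.09, limma adjusted p = 0.0447). These calls sit at the threshold. None was made when any library other than mutant rescue replicate 1 was left out, in a fit of only the 2 groups, with libraries centred on their medians, with no mean trend or with no filter. The authors' deposited table has EIF2S3 and EIF4EBP1 higher (log2 changes of 1.09 and 0.65, adjusted p = 0.000294 and 0.0196), in a comparison in which it calls 7.87% of all genes tested.

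Mutant rescue against control gave 3 factors higher, EIF2S3, EEF2 and EIF5AL1, and 2 lower, EIF3I and EEF1E1, where 24.9% of all genes were called, 13.9% higher and 11.0% lower. Mutant rescue libraries lay above both control libraries for 16 factors and below them for 15, against 31.5% and 31.0% of all genes. EIF3I stood at 11.25 and 10.93 in mutant rescue, 1.97-fold below control, a change of -0.98 (SE 0.13, limma adjusted p = 0.00171). It was the only call on these factors, in any of the 6 comparisons, that was kept in every fit that left out 1 library, with changes between -1.14 and -0.82. EEF1E1 stood at 10.89 and 10.93, a change of -0.53 (SE 0.12, limma adjusted p = 0.0147), and its call was lost without control replicate 2 and in a fit of only the 2 groups. EIF3I and EEF1E1 thus lay below both control libraries in every knockdown, rescue and mutant rescue library, groups that were compared with the same control libraries. Other factors did so too by smaller margins, among them EIF2S1, EIF2B3, EIF3C, EIF3D, EIF3M, EIF4A1, EIF4A3, EIF4EBP3 and EIF5B. EIF2S3 (chromosome X, 24054716 to 24077971, plus strand) was 2.39-fold higher than in control, a change of 1.26 (SE 0.24, limma adjusted p = 0.00795), and its call was lost without control replicate 1. EEF2 rose by 1.01 (SE 0.29, limma adjusted p = 0.0352) and lost its call without either control or either knockdown library. EIF5AL1 rose by 0.85 (SE 0.22, limma adjusted p = 0.0256) and lost its call without either control library or mutant rescue replicate 2. The authors' deposited table has 3 factors higher and 3 lower and calls 16.8% of all genes tested.

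**Figure D3:**
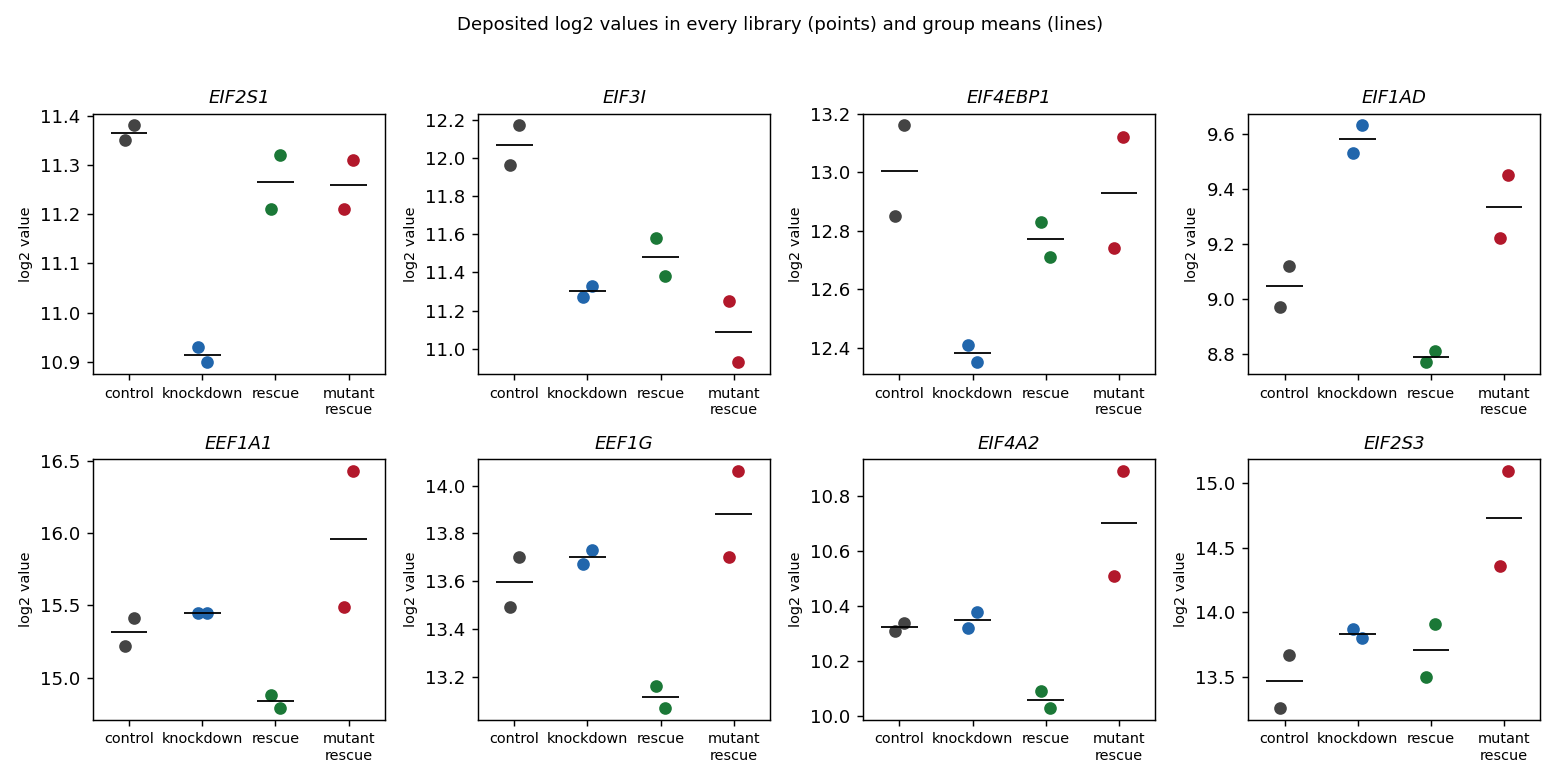
Deposited log2 values (vertical axes, scaled for each gene) of 8 factors in every library (points) with group means (lines), by group (horizontal axes). EIF2S1 is lowest in knockdown, EIF3I is highest in control, EIF1AD is highest in knockdown and lowest in rescue, and EEF1A1, EEF1G and EIF4A2 are lowest in rescue and highest in mutant rescue replicate 2.

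Rescue against mutant rescue asked where the intact and the mutant protein differed. Rescue libraries were lower in 9 of the 57 factors and higher in none, which is 15.8% of the factors. Over all genes 10.5% were called, 4.61% lower and 5.90% higher. Rescue libraries lay below both mutant rescue libraries for 25 factors and above them for 7, against 30.2% and 27.7% of all genes. The 9 genes are the elongation factor genes EEF1A1, EEF1G and EEF2, the eIF3 subunits EIF3F and EIF3L, the helicase gene EIF4A2, EIF2S3, EIF1AD and EIF5AL1. The first bases of their transcripts are shown because 5 of the genes begin with an oligopyrimidine tract. Each line gives 30 bases of the reference at the gene's RefSeq start (GRCh38.p14), 15 before the start base and 15 from it on, so the start base is the 16th, and capitals mark a C at the start base with the run of C and T that follows it.

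EEF1A1: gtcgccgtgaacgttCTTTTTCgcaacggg
EEF2: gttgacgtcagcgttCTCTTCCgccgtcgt
EIF2S3: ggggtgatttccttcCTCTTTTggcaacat
EIF3F: ttccgcttccgcctcCTTCTTTCTCgacaa
EIF4A2: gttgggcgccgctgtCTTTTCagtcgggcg
EEF1G: tctcccgggcggcttactttgcggcagcgc
EIF1AD: cgagacagcgccggaagtacggttttcgga
EIF5AL1: cgtgtaaaatgcctgggtagaggcggcggc

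The windows lie at chr6:73521018-73521047 (minus strand) for EEF1A1, chr19:3985449-3985478 (minus) for EEF2, chrX:24054941-24054970 (plus) for EIF2S3, chr11:7987322-7987351 (plus) for EIF3F, chr3:186783562-186783591 (plus) for EIF4A2, chr11:62573877-62573906 (minus) for EEF1G, chr11:66002143-66002172 (minus) for EIF1AD and chr10:79512518-79512547 (plus) for EIF5AL1. The first 5 have the tract exactly at the start base, and EEF1G, EIF1AD and EIF5AL1 do not have it there. EIF3L is not among the starts used.

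EEF1A1 (chromosome 6, 73515750 to 73523797, minus strand) had log2 values of 15.22 and 15.41 in control, 15.45 in each knockdown library, 14.88 and 14.79 in rescue, and 15.49 and 16.43 in mutant rescue. Rescue was 2.19-fold lower than mutant rescue, a difference of -1.13 (SE 0.25, limma adjusted p = 0.0296). The rescue libraries were the lowest of all 8, and mutant rescue replicate 2 was the highest. EEF1A1 has 39 pseudogene symbols in the table, with values of at most 5.14, and reads of near-identical copies cannot be split with certainty. EEF1G stood at 13.16 and 13.07 in rescue and 13.70 and 14.06 in mutant rescue, a difference of -0.76 (SE 0.14, limma adjusted p = 0.0129), with control at 13.49 and 13.70 and knockdown at 13.67 and 13.73. EEF2 (chromosome 19, 3976056 to 3985469, minus strand) stood at 13.02 and 13.14 in rescue and 13.70 and 14.83 in mutant rescue, a difference of -1.18 (SE 0.29, limma adjusted p = 0.0383). For each of the 3 elongation genes the rescue libraries lay below every other library.

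EIF4A2, the paralog of the main initiation helicase, stood at 10.31 and 10.34 in control, 10.32 and 10.38 in knockdown, 10.09 and 10.03 in rescue, and 10.51 and 10.89 in mutant rescue, a difference between the rescue arms of -0.64 (SE 0.12, limma adjusted p = 0.0184). EIF4A1 itself stood at 13.85 and 13.97 in rescue and 13.90 and 13.65 in mutant rescue, a difference of 0.13 (limma adjusted p = 0.553), so the groups overlapped. EIF3F stood at 9.89 and 9.74 in rescue and 10.32 and 10.72 in mutant rescue, a difference of -0.71 (SE 0.14, limma adjusted p = 0.0191). EIF3L had the smallest called difference, at 11.71 and 11.74 against 12.06 and 12.11, a change of -0.36 (SE 0.09, limma adjusted p = 0.0431). Other eIF3 subunits were not called, and EIF3I had the opposite sign, 0.39 (limma adjusted p = 0.0887).

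EIF2S3 differed by -1.02 between the rescue arms (SE 0.24, limma adjusted p = 0.0350), at 13.50 and 13.91 in rescue against 14.36 and 15.09. Its partners EIF2S1 and EIF2S2 differed by 0.01 and -0.01 (each with a limma adjusted p of 0.946), with the groups overlapping. EIF1AD was lower in rescue by a log2 difference of -0.54 (SE 0.12, limma adjusted p = 0.0251), with mutant rescue libraries at 9.22 and 9.45. EIF5AL1, a near-identical copy of EIF5A, stood at 6.35 and 6.32 in rescue and 6.84 and 7.58 in mutant rescue, a difference of -0.88 (SE 0.22, limma adjusted p = 0.0414). EIF5A, which helps the ribosome through difficult peptide bonds, stood at 13.20 and 13.18 in rescue and 13.42 and 14.04 in mutant rescue, a difference of -0.54 that did not pass (limma adjusted p = 0.0941), and the reads of these copies cannot be told apart with certainty.

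The starts were then read for every factor in the RefSeq table used, after these values were known. A tract was counted where the base at a listed start was C and was followed by at least 4 further bases that were each C or T, on the transcribed strand only. Of the 59 factors 47 matched the table, and 12 of the 47 (25.5%) had such a start, against 5.14% of the 27305 genes in the table and 4.07% of its 35116 starts. The 12 were EEF1A1, EEF1B2, EEF2, EIF2A, EIF2D, EIF2S3, EIF3D, EIF3F, EIF3K, EIF3M, EIF4A2 and EIF4B. EEF1B2 had the longest run, of 16 bases, at the second of 2 listed starts.

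In rescue against mutant rescue, 5 of these 12 genes were called lower and the median difference was -0.40. Of the 35 factors with another start 3 were called lower, and their median was 0.00. These counts were 0 and 0 in a fit of only the 2 groups, 2 and 1 with no filter and 6 and 4 with the replicate block. No order between the kinds of start is read from the counts. With each library left out in turn, the medians ran from -0.60 to -0.29 and from -0.05 to 0.00, and their difference was not tested. EEF1D, EIF3A, EIF3E, EIF3G and EIF3H, which belong to the textbook list given below, had no start among those used. They are therefore in neither set, and none of them was called in this comparison. EEF1G, also of that list, was called and is counted among the 35. Over all genes tested, 7.45% of the 711 with a pyrimidine start and 4.40% of the 8702 with another start were called lower, with medians of -0.09 and -0.02. In knockdown against control 1 of the 12 (EIF3M) and 8 of the 35 were called lower. These counts were 3 and 8 in a fit of only the 2 groups and without either mutant rescue library, so no order between the kinds of start is read from them. Among members of a textbook list of translation factor genes with a terminal oligopyrimidine start, 4 of 11 were called lower in rescue than in mutant rescue, EEF1A1, EEF1G, EEF2 and EIF3F, and none of the 11 was called in knockdown against control. In that comparison 2 of the 11 were lower in a fit of only the 2 groups and without either mutant rescue library, 1 was lower with the replicate block, and the authors' deposited table has 4 lower. These counts describe the genes and were not tested against each other. In rescue against mutant rescue the median of the 77 cytosolic ribosomal protein genes, which share this kind of start, was -0.48, with 21 called lower (27.3%, against 4.61% of all genes) and 0 higher. That count depended on the libraries: it was 60 without mutant rescue replicate 1, 3 without mutant rescue replicate 2, 4 without rescue replicate 1, 1 without rescue replicate 2, 2 without either knockdown library, 1 in a fit of only the 2 groups, 5 with no filter, 13 without a mean trend and 34 with the replicate block. The median ran from -0.64 to -0.30 with each library left out in turn. In rescue against control the median of these 77 genes was -0.53, with 26 called lower (33.8%, against 2.27% of all genes). That count was 6 with no filter, 21 in a fit of only the 2 groups, 22 without a mean trend and 31 with the replicate block. Fewer were called when any control, knockdown or rescue library was left out, and more without either mutant rescue library. The authors' deposited table has 59 lower and calls 8.1% of all genes tested. The median ran from -0.66 to -0.39 with each library left out. In knockdown against control the median of these 77 genes was -0.29, with 6 called lower (7.79%, against 7.44% of all genes). Both knockdown libraries lay below both control libraries for 59 of them, where 31.4% of all genes did so. A fit of only the 2 groups called 24 lower, and 1440 of all 13030 genes tested. The authors' deposited table has 40 lower and calls 20.1% of all genes tested. The median ran from -0.44 to -0.16 with each library left out.

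**Figure D4:**
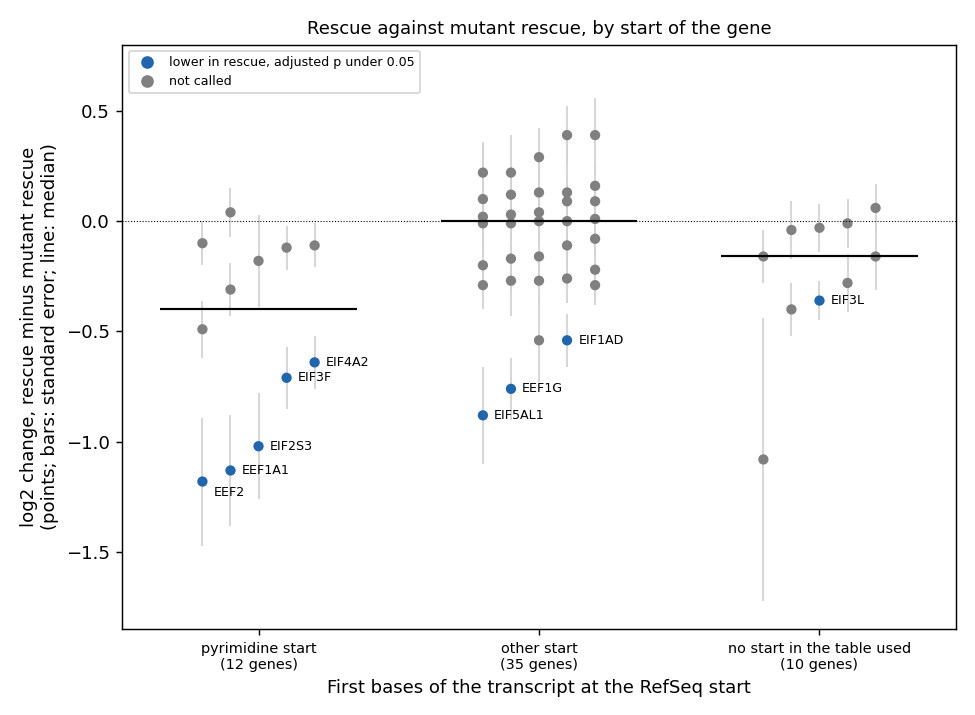
Log2 difference of each tested factor between rescue and mutant rescue (vertical axis, points, with standard errors from limma as bars and the median as a line), by the first bases at the RefSeq start (horizontal axis). The median is -0.40 for the 12 genes with a pyrimidine start and 0.00 for the 35 with another start, and the 9 called genes are named.

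Mutant rescue replicate 2 carries much of this difference. Without it 4 factors were called lower in rescue, EEF1A1 (-0.66), EEF1G (-0.58), EEF2 (-0.62) and EIF4A2 (-0.45), and without mutant rescue replicate 1 there were 14 lower and 2 higher, with EEF1A1 at -1.60 and EEF2 at -1.75. The count was 5 without either control library, 3 without either knockdown library, 2 without rescue replicate 1, 0 without rescue replicate 2, 0 in a fit of only the 2 groups and 3 with no filter, while the authors' deposited table, which calls 7.66% of all genes here, lists 8 of the 9 as lower, all but EIF3L. With each library left out in turn, the median of the pyrimidine start genes was -0.60 at the lowest and -0.29 at the highest.

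The remaining paralogs are given by their ranges, and differences between paralogs were not tested. EIF4E lay between 11.45 and 12.01, with its highest value in control replicate 2, and EIF4E2, a cap-binding repressor, lay between 11.22 and 11.38 in all 8 libraries. EIF4E3 was at 7.82 and 7.59 in control and 7.31 and 7.40 in mutant rescue, a difference of -0.35 that did not pass (limma adjusted p = 0.0816). EIF4G1 ranged from 12.23 to 12.96, EIF4G3 from 8.77 to 9.24 and EIF4G2, which drives initiation without eIF4E, from 14.18 to 14.72, and none of them was called in any comparison. EIF5A2 lay between 5.97 and 6.35. EIF6, which keeps the ribosomal subunits apart, lay between 11.48 and 11.88 and was not called.

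Other genes of translation were read from lists. Of 22 regulators of initiation and elongation, 1 fell in knockdown, DPH5 (-0.59, SE 0.13, limma adjusted p = 0.0219), an enzyme of the diphthamide modification on eEF2, which is 4.55% of the list against 7.44% of all genes called lower. EIF2AK2, the interferon-induced kinase PKR that phosphorylates EIF2S1's product, stood at 9.29 to 9.76 in control and knockdown libraries, 12.13 and 12.11 in rescue and 10.87 and 10.75 in mutant rescue. It rose by 2.48 in rescue over knockdown (SE 0.11, limma adjusted p = 2.62e-06) and was the only regulator called there (4.55% of the list higher, against 3.22% of all genes), and the kinase was also higher in rescue than in mutant rescue by 1.31 (limma adjusted p = 0.00039) and than in control by 2.76 (limma adjusted p = 1.16e-06). In mutant rescue over knockdown EIF2AK2 and RHEB, the GTPase that activates mTORC1, rose (1.17 and 0.42), 9.09% of the list against 5.58% of all genes called higher. Against control, mutant rescue was higher in EIF2AK2, RHEB (0.41) and PDCD4 (0.46), an inhibitor of the eIF4A helicase, and lower in DPH5 (-0.42), 18.2% of the list against 24.9% of all genes called.

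Of 19 tested genes for other translation factors, 1 fell in knockdown, the mitochondrial elongation factor gene GFM1 (-0.83, SE 0.12, limma adjusted p = 0.00436), which is 5.26% of the list against 7.44% of all genes called lower. GFM1 stood at 10.82 and 10.78 in control, 9.91 and 10.04 in knockdown, 10.29 and 10.43 in rescue, and 9.97 and 9.70 in mutant rescue, and was higher in rescue than in mutant rescue by 0.53 (limma adjusted p = 0.0265). PABPC1, the poly(A)-binding protein and the 12th gene of the oligopyrimidine list, was lower in rescue, at 13.62 and 13.57, below both mutant rescue libraries, a difference of -0.73 (SE 0.19, limma adjusted p = 0.0418). Its relative PABPC4 stood at 7.85 to 8.22 in the control, knockdown and rescue libraries and at 8.61 and 9.70 in mutant rescue, and rose by 1.25 over knockdown (SE 0.28, limma adjusted p = 0.0334), as did PELO (0.55), a ribosome rescue factor, 10.5% of the list against 5.58% of all genes called higher. None of the 19 was called in rescue against knockdown or in rescue against control. Against control, mutant rescue was higher in PABPC4 (1.24) and PAIP1 (0.39) and lower in GFM1 (-0.97), ABCE1 (-0.47), a ribosome recycling factor, and HBS1L (-0.39), 26.3% of the list against 24.9% of all genes called.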

How the data were processed

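RNA sequencing libraries were grouped by sample title, and columns were matched by description and title. Per the file headers the table was written by getDiffExpression.pl of HOMER; the submitters' processing notes also name Trim Galore, kallisto and GRCh38, without saying what each was used for. The deposited library values are log2 values that the authors normalized across libraries by a method not given in the sources used here, and values of low genes lie close together, so changes of low genes are understated. The authors' log2 fold changes, p-values and adjusted p-values are deposited beside them, and the sources used here do not give their model. No counts were used, so depth is unknown, no counting error can be given, and the precision is that of 2 libraries per group. 1 row without a symbol was left out.

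A gene was kept if its linear value reached 1 ppm of the sum over genes in 2 or more libraries (13030). limma 3.58.1 (R 4.3.3) was fitted to all 8 libraries with 4 group means, 4 residual degrees of freedom and a mean trend, without a pseudocount, for 6 contrasts; the procedure was tested on simulated data. Fold changes are on the scale of the deposited values. Levels were not compared between genes, since the unit per length is unknown. The genes, role groups and lists were chosen with earlier results of these data known. Every factor may be named; values per library are given for called factors (the 10 with the smallest adjusted p per contrast), the member of highest mean in a role group and paralogs, and for other lists the called members of smallest adjusted p. The count of pyrimidine starts and the ribosomal protein list were added after seeing the data. Positions are from GENCODE v29 and starts from RefSeq (GRCh38.p14). Alternatives were no filter, 5 ppm, median centring, no trend, only the 2 groups, a replicate block, the deposited calls and leaving out each library; where that left 1 library, it was assumed to vary like the others.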

Additional observations from a re-analysis of the deposited data

How the results depend on the processing

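The number of factors called in either direction was 12 in knockdown against control, 1 in rescue against knockdown, 4 in mutant rescue against knockdown, 9 in rescue against mutant rescue, 3 in rescue against control and 5 in mutant rescue against control. With no filter on low values it was 7 in knockdown against control, 0 in mutant rescue against knockdown, 3 in rescue against mutant rescue, 0 in rescue against control and 3 in mutant rescue against control, with more genes in the adjustment. At 5 ppm it was 2 in rescue against knockdown and 2 in mutant rescue against knockdown. Median centring gave 2 and 0 in these comparisons, and the fit without a mean trend gave 0 in mutant rescue against knockdown. Fits of only the 2 groups gave 14 in rescue against knockdown, 0 in mutant rescue against knockdown, 0 in rescue against mutant rescue and 2 in mutant rescue against control. The authors' deposited adjusted p gave 20 in knockdown against control, 13 in rescue against knockdown, 2 in mutant rescue against knockdown and 8 in rescue against control. Leaving out 1 library gave 0 to 15, 0 to 6, 0 to 14, 0 to 16, 0 to 10 and 3 to 14, in the order of the first sentence. With the replicate number as a block the counts were 12, 2, 5, 12, 3 and 6. The labels do not say that a number marks a shared batch or day, and the correlation of replicate differences between groups was 0.414 for knockdown and rescue, 0.193 and 0.19 for mutant rescue with control and with rescue, and between -0.021 and 0.07 for the rest. The numbers were therefore not taken to pair the samples, though shared deviations of some groups are not excluded by these values. Other than in the comparison with 1 call, the block moved no count by over 1.5 times. No called change of a factor reversed its direction under any alternative run. The cause of these changes was not tested. With 2 libraries per group and no counts, a change smaller than the spread between libraries was not detectable.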

Other observations

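Replicates of mutant rescue stood further apart in these genes than those of the other groups. The replicates differed by more than 0.5 on the log2 scale in 9 of 57 factors in mutant rescue (15.8%, against 8.99% of all genes tested). They did so in 3 factors in control (5.26%, against 2.52% of all genes), 1 in knockdown (1.75%, against 0.967%) and 1 in rescue (1.75%, against 4.24%). In 8 of the 9 in mutant rescue, replicate 2 was the higher: EIF3CL by 1.67, EEF2 by 1.13, EEF1A1 by 0.94, EIF3B by 0.93, EIF4B by 0.74, EIF5AL1 by 0.73, EIF2S3 by 0.72 and EIF5A by 0.62. EIF4G2 was lower in replicate 2, by a log2 difference of -0.52. EIF3B, a core subunit of eIF3, stood at 9.63 and 10.56 in mutant rescue, 10.05 and 10.35 in rescue, 9.85 and 9.83 in knockdown and 9.61 and 9.63 in control, and was not called in any comparison, while the authors' deposited table lists it as higher in rescue than in control (log2 change of 0.75, adjusted p = 0.00529).

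In control, replicate 2 lay above replicate 1 in 42 of 57 factors, with a median difference of 0.13, where 53.3% of all genes did so, and EEF2K stood at 6.25 and 5.37. EIF3CL differed by more than 0.5 between the replicates of every group.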
